A study of Mus musculus with 2 samples.

Results

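The genes described here were 9 chemokine ligands made by T cells and myeloid cells: Ccl1, Ccl3, Ccl4, Ccl5, Xcl1, Ccl22, Cxcl9, Cxcl10 and Cxcl2. They were chosen by symbol, and all 9 were found among the 31053 mouse genes of the count table. The study transplanted B16 melanoma cells intradermally into mice, as plain B16 or as B16IL33, a line engineered to secrete the alarmin IL-33, with no other treatment. CD4+ and CD8+ T cells were sorted from the tumors by flow cytometry, marked with hashtag antibodies by tumor, and pooled for 1 run of 10x Chromium 5′ sequencing, which gave a gene expression, a hashtag and a T cell receptor (TCR) library. The pool is 1 sample, the labels name neither the number of mice nor a replicate, and cells of 1 pool are not replicates, so no test between conditions was possible. Intervals in this section are 95% and cover counting error alone: exact Poisson for a level, Clopper-Pearson for a share of cells and exact conditional binomial for a ratio.

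Chemokines are small secreted proteins that draw leukocytes along a gradient through G protein-coupled receptors. Activated CD8+ T cells are known sources of the CC chemokines CCL3, CCL4 and CCL5, which draw T cells and myeloid cells, and of XCL1, which draws cross-presenting dendritic cells through XCR1. Myeloid cells of tumors are known sources of CXCL9 and CXCL10, the interferon-induced ligands of CXCR3 on T cells, of CXCL2, which draws neutrophils through CXCR2, and of CCL22, which draws Treg cells through CCR4. CCL1 is a ligand of CCR8, a receptor found on tumor Treg cells.

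Of 14035 barcodes, 9844 had at least 200 detected genes and under 5% mitochondrial UMIs (unique molecular identifiers, each standing for 1 captured transcript), and these held 40091218 UMIs with a median of 2639 per cell. Cells were placed in 5 classes by the transcripts of a few genes. The CD8 class held 1538 cells with more Cd8a and Cd8b1 than Cd4 and Foxp3 UMIs. The Treg class held 2833 cells with Foxp3 and no Cd8a or Cd8b1 UMI. The Tconv class held 1813 with Cd4 and the NKT class 89 with Zbtb16, both without a Foxp3, Cd8a or Cd8b1 UMI. The myeloid class held 183 with Csf1r and no Cd3e. Another 3443 cells met none of these rules, 2368 of them with Cd3e. The median depth ran from 2543 UMIs in Tconv to 6440 in the myeloid class, and 55 cells met more than 1 rule. A level below is the sum of a gene's UMIs in a class divided by all UMIs of that class, scaled to 1000000 (CPM).

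The labels of 2 classes were checked against other genes. In the NKT class, 25 of the 44 cells with a TCR alpha contig (56.8%) carried the invariant Trav11-Traj18 chain, against 2.47% of Tconv, and Klrb1c, which encodes NK1.1, stood at 45.9 CPM against 6.64. The other NKT cells with a contig did not carry that chain. Klrb1c was found in 11.2% of NKT and 1.49% of Tconv cells, and the Tconv values include 26 cells that met both rules. The myeloid class expressed the macrophage genes C1qb at 1773 CPM and Adgre1 at 90.4 CPM, and Cd3d at 35.3 CPM. In that class 29.5% of cells held a CD3 transcript, although the sort was for T cells. Myeloid transcripts also occurred in T cell barcodes: at least 1 UMI of 8 myeloid genes (C1qa, C1qb, C1qc, Lyz2, Apoe, Aif1, Fcer1g and Tyrobp) was present in 24.9% of CD8, 15.6% of Treg and 13.9% of Tconv cells. Whether T cells made some of these transcripts, such as those of Fcer1g and Tyrobp, was not tested. Nor was their part in the levels below. Values in T cells with a CD3 UMI and none of these 8 genes are therefore given beside several of the results.

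The ligands fell into 2 sets by where their level was highest. Ccl5, Xcl1 and Ccl1 were highest in CD8+ T cells. Ccl3, Ccl4, Cxcl2, Cxcl9, Cxcl10 and Ccl22 were highest in the myeloid class, and of these Ccl3 and Ccl4 were also high in CD8+ T cells. The 10 cells with the most UMIs carried much of several myeloid levels: without them Ccl4 was higher in CD8 than in the myeloid class (812 against 617 CPM). Leaving out 10 cells takes a larger part of a small class, here of 183 myeloid against 1538 CD8 cells. This tends to lower the smaller side more, here and in each ratio below without the highest cells. Such ratios show how few cells hold a level and are no test of direction.

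**Figure D1:**
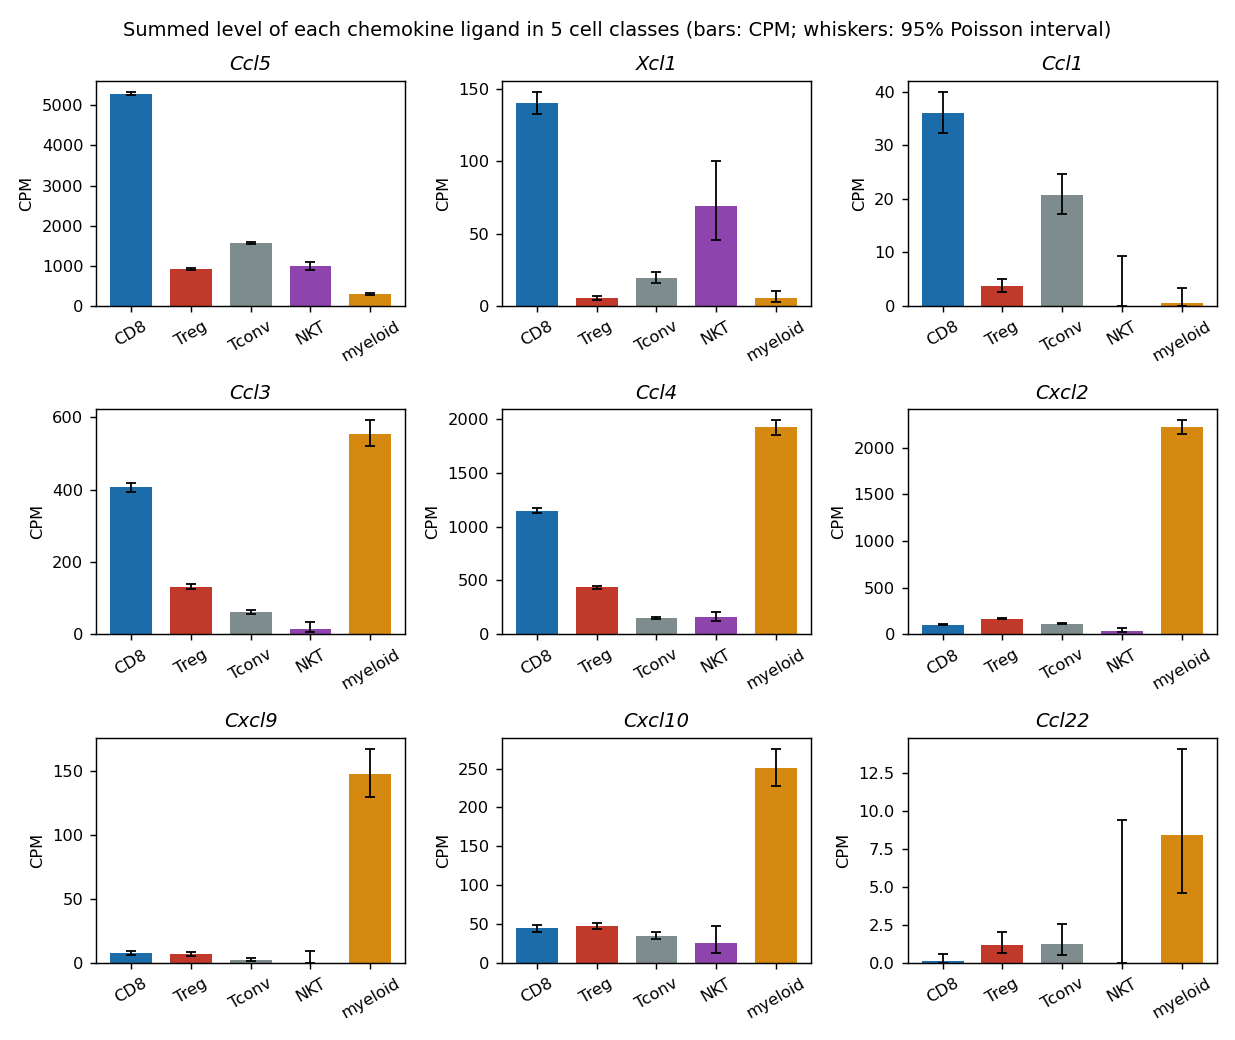
Level of each of the 9 ligands in the CD8, Treg, Tconv, NKT and myeloid classes, 1 panel per gene, in CPM on a linear axis with its own scale. Bars are summed levels and whiskers 95% Poisson intervals. Ccl5 peaked in CD8 at 5294 CPM, Xcl1 in CD8 at 141 CPM, and Cxcl2 in the myeloid class at 2221 CPM.

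Ccl5, on chromosome 11 (chr11:83525778-83530518, minus strand, a protein-coding gene in GRCm38), encodes RANTES, a chemokine stored by effector and memory CD8+ T cells. Its level was 5294 CPM (5248 to 5340.2) in CD8, 1565 CPM (1532 to 1597) in Tconv, 984 CPM (889 to 1088) in NKT, 921 CPM (904 to 939) in Treg and 287 CPM (262 to 314) in the myeloid class. With cells that met both rules left out, all neighbors in this order were apart beyond counting error except NKT and Treg, whose ratio was 1.07 (0.963 to 1.18). Ccl5 was present in 84.4% of CD8 cells with 39.1 UMIs per positive cell, against 55.6% and 6.53 UMIs in Treg and 52.2% and 9.45 UMIs in Tconv. With every cell thinned to 1500 UMIs, the shares were 73.9% in CD8, 41.6% in Treg and 41.8% in Tconv. Treg and Tconv thus differed in the amount per positive cell more than in the share of positive cells. CD8 cells held 58.6% of all Ccl5 UMIs of the kept cells, and the 10 highest cells held no more than 4.96% of the UMIs in that class.

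Xcl1 (chr1:164931644-164935527, minus strand), which encodes lymphotactin, was the ligand with the widest gap between CD8 and Treg. It stood at 141 CPM (133 to 148) in CD8, 68.9 CPM (45.4 to 100.2) in NKT, 19.4 CPM (15.96 to 23.4) in Tconv, 5.39 CPM (2.47 to 10.2) in the myeloid class and 5.20 CPM (3.95 to 6.72) in Treg. The last 2 did not differ beyond counting error. The share of cells with Xcl1 was 15.5% in CD8 and 14.6% in NKT, and 8.89% and 12.6% at equal depth, while Treg had 1.62%, or 0.673% at equal depth. A positive CD8 cell held 5.66 UMIs and a positive Treg cell 1.26, and no Treg cell held more than 4.

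Ccl1 (chr11:82176657-82305690, minus strand) was rare and concentrated in few cells. All kept cells together held 567 UMIs in 120 cells, 64 of them CD8, 23 Tconv, 13 Treg and 1 myeloid. Its level was 36.0 CPM (32.3 to 40.02) in CD8, 20.6 CPM (17.1 to 24.7) in Tconv and 3.67 CPM (2.64 to 4.98) in Treg. No UMI was found in NKT, where 3 counts would have been 7.65 CPM. The 10 highest cells held 57.7% of the Ccl1 UMIs in CD8, 87.3% in Tconv and 92.7% in Treg, where 1 cell held 28 of 41.

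Ccl3 (chr11:83647844-83649355, minus strand) and Ccl4 (chr11:83662584-83664683, plus strand) are neighbors on chromosome 11 and encode MIP-1α and MIP-1β. Ccl4 stood at 1922 CPM (1856 to 1989.8) in the myeloid class, 1149 CPM (1127 to 1170.4) in CD8, 437 CPM (424 to 449) in Treg, 158 CPM (121 to 203) in NKT and 149 CPM (139.6 to 159.8) in Tconv. Ccl3 stood at 555 CPM (520.1 to 592) in the myeloid class, 406 CPM (394 to 419) in CD8, 131 CPM (124 to 138) in Treg, 61.7 CPM (55.4 to 68.5) in Tconv and 15.3 CPM (5.62 to 33.3) in NKT. Both genes had the same order in CD8, Treg and Tconv. With cells that met both rules left out, neighbors in either order were apart beyond counting error. For Ccl4 in NKT and Tconv this depended on the 26 shared cells. The ratio was 1.47 (1.11 to 1.92) without them, but 1.04 (0.789 to 1.34) with these cells counted as NKT. In the myeloid class 72.2% of the Ccl4 UMIs came from 10 cells, of which the highest held 862, against 30.4% in CD8. At equal depth, Ccl4 was present in 38.4% of myeloid and 32.9% of CD8 cells, and Ccl3 in 34.3% and 17.8%.

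Cxcl2 (chr5:90903871-90905938, plus strand), the neutrophil attractant, had its highest level in the myeloid class, 2221 CPM (2150.2 to 2294), with 59.6% of cells positive and 34.0 UMIs per positive cell. Cxcl9 (chr5:92321347-92328079, minus strand) stood there at 148 CPM (130.1 to 168) in 26 cells, and Cxcl10 (chr5:92346638-92348889, minus strand) at 250.4 CPM (227 to 276) in 28 cells. These last levels rested on few cells, since the 10 highest held 85.4% of the Cxcl9 and 83.3% of the Cxcl10 UMIs of the class. The myeloid class held 50.9% of all Cxcl9 UMIs and 33.9% of all Cxcl2 UMIs of the kept cells, but 20.7% of those of Cxcl10. Cxcl10 was the interferon-induced ligand with the most UMIs outside the myeloid class, at 47.2 CPM (43.3 to 51.4) in Treg, 44.2 CPM (40.1 to 48.6) in CD8 and 35.0 CPM (30.3 to 40.2) in Tconv, in 177, 102 and 79 cells. Treg and CD8 did not differ beyond counting error for Cxcl10, nor for Cxcl9, which stood at 6.90 and 7.62 CPM. In CD8, however, 106 cells with 5 or more UMIs of the 8 myeloid genes held 52.5% of the Cxcl10 UMIs. Without the 10 highest cells of each class Cxcl10 stood at 32.8 CPM in Treg and 16.8 CPM in CD8.

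The sequence before the transcription start was available from RefSeq for 7 of the 9 genes (build GRCm38.p6, 250 bases each), all but Ccl4 and Ccl5. These windows were searched on both strands for an interferon-response pattern (GAAA, any 2 bases, GAAA), an NF-kappaB pattern (GGG, any 3 bases, TTCC) and an AP-1 pattern (TGANTCA, where N is any base). Of 32841 mouse promoter windows of the same length, 2.98% held the first pattern, 4.65% the second and 6.75% the third. The 3 member windows with a match are shown 5′ to 3′ on the strand of the gene, because they set a ligand with all 3 patterns, Cxcl10, beside the myeloid ligand Cxcl2 and the T cell ligand Ccl1. Capitals mark the matches. The Cxcl10 window is chr5:92348890-92349139 (minus strand), the Cxcl2 window chr5:90903649-90903898 (plus strand) and the Ccl1 window chr11:82179813-82180062 (minus strand). The last lies before the RefSeq start of Ccl1 but inside the GENCODE span given above, which runs further upstream.
Cxcl10: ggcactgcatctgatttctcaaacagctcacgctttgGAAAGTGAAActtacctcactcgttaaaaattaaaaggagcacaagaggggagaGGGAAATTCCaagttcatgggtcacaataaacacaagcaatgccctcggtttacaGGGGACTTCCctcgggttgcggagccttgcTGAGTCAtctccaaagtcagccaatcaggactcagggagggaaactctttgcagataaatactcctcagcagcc
Cxcl2: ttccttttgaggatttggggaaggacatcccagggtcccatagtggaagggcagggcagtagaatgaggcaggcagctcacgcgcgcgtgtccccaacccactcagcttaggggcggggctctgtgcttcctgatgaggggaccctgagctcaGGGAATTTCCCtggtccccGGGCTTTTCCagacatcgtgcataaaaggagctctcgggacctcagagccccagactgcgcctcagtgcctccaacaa
Ccl1: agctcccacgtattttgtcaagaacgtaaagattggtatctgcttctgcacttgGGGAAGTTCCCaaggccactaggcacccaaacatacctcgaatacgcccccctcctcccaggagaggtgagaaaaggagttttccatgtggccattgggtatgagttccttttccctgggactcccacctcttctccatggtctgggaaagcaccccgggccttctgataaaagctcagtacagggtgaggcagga
Cxcl10 had an interferon-response match starting at position -213 from the transcription start, NF-kappaB matches at -159 and -104, and an AP-1 match at -74. Cxcl2 had NF-kappaB matches at -97 and -78, the former overlapping a match at -96 on the other strand. Ccl1 had an NF-kappaB match at -196 overlapping another at -195 on the opposite strand. The windows of Ccl3, Ccl22, Cxcl9 and Xcl1 held none of the 3 patterns. A match is a description of letters and was not tested as a binding site.

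Ccl22 (chr8:94745590-94751699, plus strand) stood apart, because most of its transcripts lay outside the 5 classes. Its 263 UMIs came from 36 kept cells, and 3 cells held 181 of them (68.8%), with 87, 57 and 37 UMIs. None of the 3 had a Csf1r UMI. The cell with 87 also held 28 Ccr7, 75 Fscn1, 14 Cacnb3 and 15 Ccl17 UMIs, which are markers of migratory dendritic cells, and 1 Flt3 UMI. The other two held 72 and 83 Ccl17 UMIs with 7 Ccr7 UMIs each, but few of the other markers: 1 and 0 Fscn1 UMIs, 1 and 2 Cacnb3 UMIs and no Flt3 UMI, and the last held 1 Cd3e UMI. Inside the classes Ccl22 reached 8.39 CPM (4.58 to 14.1) in the myeloid class, from 14 UMIs in 5 cells, 1.22 CPM in Tconv, 1.16 CPM in Treg and 0.104 CPM, a single UMI, in CD8.

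**Figure D2:**
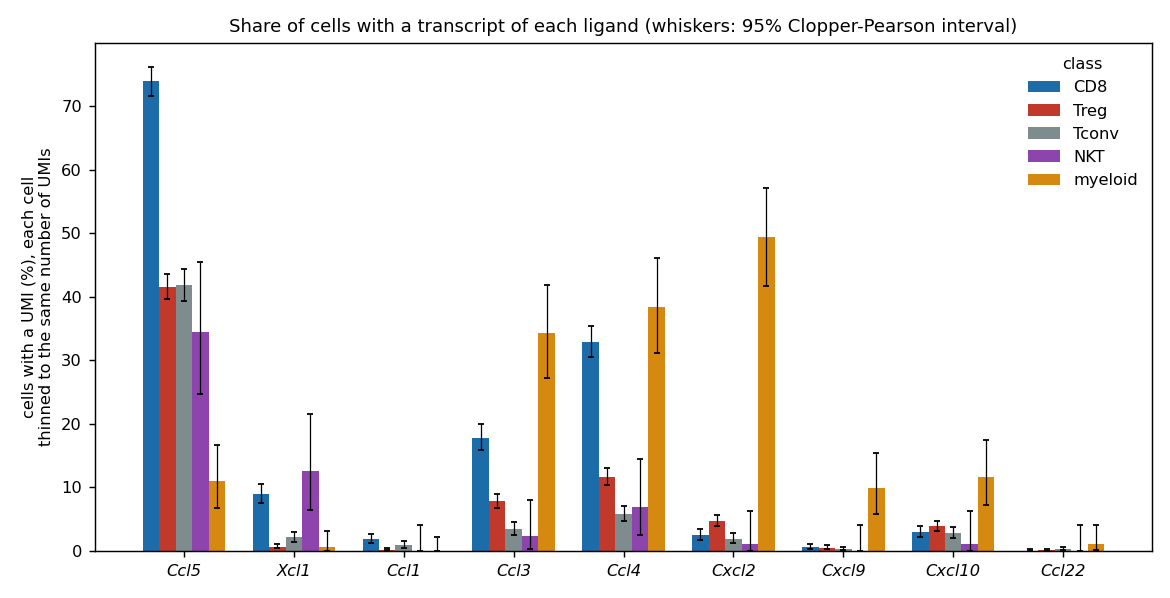
Percent of cells with at least 1 UMI of each ligand after every cell was thinned to 1500 UMIs, by class, with 95% Clopper-Pearson intervals as whiskers. Ccl5 was present in 73.9% of CD8 cells, Ccl4 in 38.4% of myeloid and 32.9% of CD8 cells, and Cxcl2 in 49.4% of myeloid cells.

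To set the classes against each other, the ratio of levels was taken for every gene with at least 20 UMIs in both classes together, and a gene was called where the ratio was past 2-fold with an interval that left out 1. In CD8 over Treg, 5 of the 8 members with enough UMIs were higher in CD8 and 0 lower, against 3.88% of 11532 genes called higher and 8.8% called lower. The ratios were 27.0 (20.8 to 35.8) for Xcl1, 9.81 (7.08 to 13.9) for Ccl1, 5.75 (5.63 to 5.87) for Ccl5, 3.102 (2.92 to 3.30) for Ccl3 and 2.63 (2.54 to 2.72) for Ccl4. All of the CC and XC ligands with enough UMIs were thus higher in CD8, and none of the CXC ligands was called. Cxcl2 had a ratio of 0.598 (0.553 to 0.647), Cxcl10 of 0.935 (0.821 to 1.07) and Cxcl9 of 1.10 (0.791 to 1.54). The median ratio was 2.87 over the 8 members and 0.896 over all genes.

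CD8 over Tconv gave 5 members of 8 higher and 0 lower, against 4.45% and 6.4% of 11108 genes. Ccl4 was 7.69-fold (7.17 to 8.25), Xcl1 7.24-fold (5.96 to 8.87), Ccl3 6.59-fold (5.91 to 7.37), Cxcl9 3.63-fold (1.96 to 7.35) and Ccl5 3.38-fold (3.31 to 3.46) higher in CD8. Ccl1, at 1.75 (1.41 to 2.17), was not past 2-fold. Without the 10 highest cells of each class the Ccl1 ratio was 5.81. Cxcl9 rested on 73 and 12 UMIs, and in T cells with CD3 and no myeloid UMI on 2 and 4, too few for a call.

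Between the CD4 classes, Treg over Tconv, 3 of 9 members were higher in Treg and 2 lower, against 4.71% and 4.04% of 11314 genes. Ccl4 was 2.92-fold (2.72 to 3.14), Ccl3 2.12-fold (1.89 to 2.39) and Cxcl9 3.29-fold (1.78 to 6.64) higher in Treg. Xcl1 had a ratio of 0.268 (0.191 to 0.371) and Ccl1 of 0.178 (0.122 to 0.256). Ccl5 did not go with Ccl3 and Ccl4 in this comparison and had a ratio of 0.589 (0.572 to 0.606). The Ccl3 call was lost with the mitochondrial limit at 10% (1.97) and when CPM was taken in each cell and then averaged (1.47). Without the 10 highest cells of each class Ccl1 stood at 0.270 CPM in Treg and 2.66 CPM in Tconv, with too few UMIs left for a call. Cxcl9 had 6 and 4 UMIs in T cells with CD3 and no myeloid UMI, too few for a call.

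**Figure D3:**
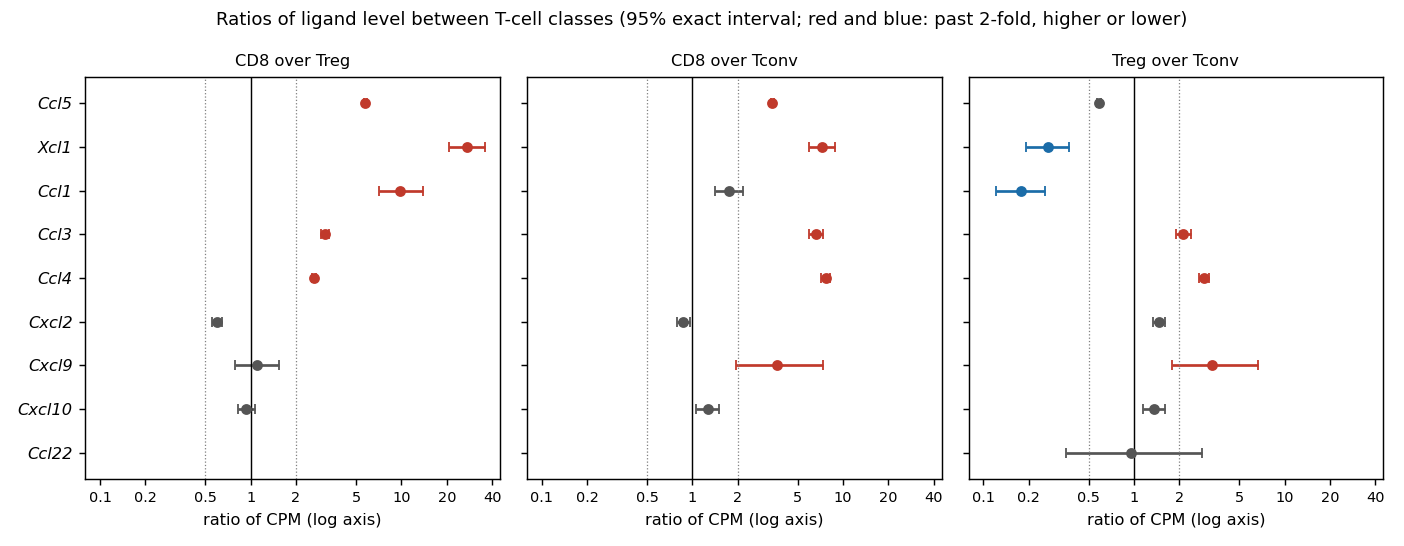
Ratio of level between CD8 and Treg, CD8 and Tconv, and Treg and Tconv for each ligand, on a log axis, with 95% exact intervals. Red and blue points are past 2-fold with an interval that leaves out 1, and dotted lines mark 2-fold in either direction. Xcl1 was 27.0-fold higher in CD8 than in Treg and Ccl4 7.69-fold higher in CD8 than in Tconv. Members with fewer than 20 UMIs are not drawn.

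NKT over Tconv, with the shared cells left out of Tconv, gave 1 of 7 members higher and 3 lower, against 2.4% and 4.03% of 9694 genes. Xcl1 was 3.93-fold (2.46 to 6.06) higher in NKT, from 27 UMIs in 13 cells. Ccl3 had a ratio of 0.243 (0.0885 to 0.534), Cxcl2 of 0.323 (0.180 to 0.537), and Ccl1, with 0 UMIs in NKT, was at least 2.76-fold lower. The NKT values rest on 89 cells: with at least 2 Zbtb16 UMIs required no Xcl1 UMI was left. Without the 10 cells with the most Xcl1 UMIs in each class the Xcl1 ratio was 0.932. That step left out 10 of the 13 positive NKT cells and a far smaller part of Tconv, so a fall was built in.

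In the myeloid class over T cells, 6 of 9 members were higher and 3 lower, against 12.7% and 20.7% of 12129 genes. The CXC ligands and Ccl22 had the highest ratios: Cxcl9 was 27.8-fold (22.5 to 34.4), Cxcl2 17.7-fold (16.9 to 18.6), Ccl22 10.6-fold (4.97 to 21.8) and Cxcl10 6.79-fold (6.04 to 7.63) higher. Ccl4 and Ccl3 followed at 3.16-fold (3.04 to 3.28) and 2.63-fold (2.45 to 2.82). Ccl5, Xcl1 and Ccl1 were lower, with ratios of 0.108, 0.0936 and 0.0315, the last from 1 myeloid UMI (0.000795 to 0.176). Without the 10 highest cells of each class only Cxcl9 and Cxcl2 were still called higher, and Ccl3, Cxcl10 and Ccl4 stood at 1.79, 1.54 and 1.25. Those 10 were a larger part of the 183 myeloid cells than of the T cells, which tends to lower a ratio.

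The levels of the myeloid ligands in T cells were set beside those of the same 8 myeloid genes. T cell barcodes with 5 or more UMIs of these genes were included, so the range does not measure free RNA alone. Those genes stood in T cells at 2.04% to 5.20% of their level in the myeloid class, with a median of 3.27%, and cells in both classes were left out. Cxcl9 stood in T cells at 3.38% (2.72 to 4.19) and Cxcl2 at 5.13% (4.89 to 5.38), inside that range. Ccl22 was at 8.12% (3.94 to 17.3), Cxcl10 at 22.6% (19.6 to 26.2), Ccl4 at 34.2% (32.8 to 35.7) and Ccl3 at 37.9% (35.2 to 40.9), above the range, although the interval of Ccl22 reached into it. By class, Cxcl2 was inside the range in CD8 (3.76% in 2.63% to 6.76%) and just above it in Treg (6.64%, over 2.17% to 6.50%) and Tconv (4.70%, over 0.591% to 3.93%). In the other direction, 8 T cell genes stood in the myeloid class at 1.85% to 3.08% of their T cell level. Ccl5 stood there at 10.96%, Xcl1 at 7.26% and Ccl1 at 3.67%, from 416, 6 and 1 myeloid UMIs. The intervals of Xcl1 and Ccl1 reached into the range of the T cell genes.

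Within the CD8, Treg and Tconv classes, Cxcl2 and Cxcl9 were highest in the cells with 5 or more UMIs of the 8 myeloid genes. In CD8 cells Cxcl2 stood at 5.84 CPM where none of the 8 myeloid genes was seen, 65.7 CPM with 1 to 4 UMIs and 652 CPM with 5 or more. The 106 CD8 cells with 5 or more held 83.6% of the Cxcl2 and 95.9% of the Cxcl9 UMIs of the class. In Tconv Cxcl2 stood at 16.9, 8.07 and 1052 CPM in the same bins, and the 56 cells with 5 or more held 87.6% of its UMIs. Treg cells differed, because Cxcl2 stood at 77.0 CPM (71.3 to 83.0) in cells without a myeloid UMI, 32.0 CPM with 1 to 4 and 1286 CPM with 5 or more, and the 109 cells of the last bin held 61.5%. For Cxcl2 the middle bin was thus the lowest in both CD4 classes. Ccl3 and Ccl4 in CD8 did not follow the myeloid UMIs in 1 direction, with Ccl3 at 445, 271 and 407 CPM in the same order. In the CD4 classes their levels were higher in the cells with 5 or more: Ccl4 stood at 379, 537 and 833 CPM in Treg and 95.6, 309.9 and 414 CPM in Tconv. Ccl3 stood at 112, 101 and 369.8 CPM in Treg and 44.8, 92.0 and 167 CPM in Tconv, so that all but the middle value of Treg went up with the bin.

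**Figure D4:**
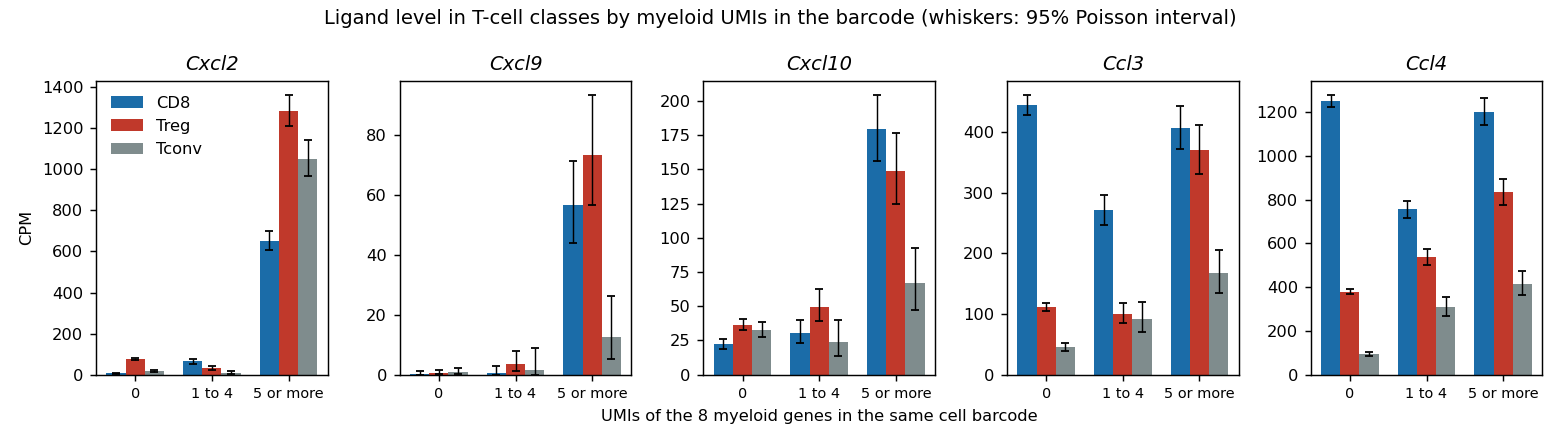
Level (CPM) of Cxcl2, Cxcl9, Cxcl10, Ccl3 and Ccl4 in CD8, Treg and Tconv cells that held 0, 1 to 4, or 5 or more UMIs of the 8 myeloid genes, with 95% Poisson intervals. Cxcl2 in CD8 went from 5.84 to 652 CPM across the 3 bins, while Cxcl2 in Treg was at 77.0 CPM in the bin with 0.

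Cxcl2 was therefore compared again in cells with a CD3 UMI and no UMI of the 8 genes, a selection made after seeing the data. It stood at 77.4 CPM (71.7 to 83.5) in 2347 Treg cells, 16.8 CPM (13.3 to 21.1) in 1526 Tconv cells and 5.85 CPM (4.14 to 8.03) in 1140 CD8 cells. The Treg level came from 122 cells with at most 50 UMIs each, and the 10 highest held 42.5%. The ratio of CD8 to Treg was 0.0755 (0.0530 to 0.105), and that of Treg to Tconv 4.601 (3.63 to 5.91), so the order Treg, Tconv, CD8 was wider here than in all cells. Cxcl10 stood at 36.5 CPM in Treg, 31.7 in Tconv and 22.3 in CD8, with a CD8 to Treg ratio of 0.611 (0.499 to 0.746). Of Cxcl9, 6, 4 and 2 UMIs were left in the same order. The calls of Ccl4 and Ccl3 over Tconv were kept in these cells, where the ratios were 13.0 (11.8 to 14.4) and 9.96 (8.63 to 11.5) in CD8, and 3.97 (3.59 to 4.40) and 2.503 (2.15 to 2.93) in Treg. The CD8 ligands kept their side: the CD8 to Treg ratio was 39.1 (27.2 to 58.4) for Xcl1 and 6.36 (6.21 to 6.51) for Ccl5.

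CD8 cells with the proliferation gene Mki67 (281, median depth 10580.0 UMIs) and without it (1257, median 3643) differed past 2-fold in 1 member of 8, which was lower, against 4.14% of 10250 genes called lower and 6.33% higher. Ccl5 stood at 2073 CPM (2025 to 2122) in the former and 7069.9 CPM (7004 to 7136) in the latter, a ratio of 0.293 (0.286 to 0.301). Ccl4 and Ccl3 pointed the same way with ratios of 0.617 (0.591 to 0.645) and 0.667 (0.621 to 0.716), not past 2-fold, and Xcl1 stood at 0.920 (0.820 to 1.03). In cells with CD3 and no myeloid UMI Ccl4 (0.480) and Cxcl2 were also called lower. Without the 10 highest cells of each side Ccl4 (0.471), Cxcl10 and Cxcl2 were also called lower. Those 10 were a larger part of the 281 cells than of the 1257, which tends to lower a ratio.

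A TCR clonotype was assigned to 1171 CD8 cells in 976 clones, of which 107 had 2 or more cells. In 302 cells of these expanded clones, against 869 cells of clones of 1 cell, 1 of 8 members was called higher and 2 lower, against 0.862% and 3.14% of 9857 genes. Ccl1 was 2.62-fold (2.07 to 3.32) higher, and Cxcl2 and Cxcl9 had ratios of 0.459 and 0.433. Ccl4 came next at 1.95 (1.87 to 2.03), then Ccl3 at 1.51 (1.41 to 1.62) and Ccl5 at 1.23 (1.21 to 1.26). The Cxcl9 call was lost in cells with CD3 and no myeloid UMI, where all CD8 cells together held 2 Cxcl9 UMIs. Cxcl2 was still called there (0.109). Xcl1, at 0.928 (0.814 to 1.06), did not differ beyond counting error, but its value depended on the cells. It was 1.61 in cells with CD3 and no myeloid UMI. Without the 10 highest cells of each side it was 0.346, and Xcl1 and Cxcl10 (0.279) were called lower. Those 10 were a larger part of the 302 cells than of the 869, which tends to lower a ratio. Clonal expansion was rarer in the CD4 classes, with 127 Treg and 63 Tconv cells in expanded clones. In Treg 0 of 8 members were higher and 1 lower, against 2.25% and 1.71% of 10145 genes, and that member was Cxcl2 (15 against 986 UMIs, 0.202, 0.113 to 0.335). In Tconv 0 of 7 were higher and 2 lower, against 2.57% and 1.42% of 8823 genes. These were Cxcl2, with 1 UMI against 365, and Ccl1, with 0 against 75, at least 1.38-fold lower. Without the highest cells neither had enough UMIs for a call, and in cells with CD3 and no myeloid UMI neither had a UMI in the expanded clones or was called. Ccl5 stood at 2665 CPM in expanded and 1538 CPM in single Tconv cells, a ratio of 1.73 (1.59 to 1.89), which turned to 0.653 without the 10 highest cells of each side. There 10 of 63 cells were left out against 10 of 1154, which tends to lower the ratio.

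Treg cells were split by Il1rl1, which encodes the IL-33 receptor ST2. The 539 cells with it had lower levels of Ccl5 (352 against 1050.1 CPM, 0.335, 0.310 to 0.361), Ccl4 (188 against 493 CPM, 0.382, 0.343 to 0.424) and Ccl3 (58.8 against 147 CPM, 0.399, 0.328 to 0.481). Cxcl9 was also called lower, from 3 and 74 UMIs. In Treg cells with CD3 and no myeloid UMI, 1 and 5 Cxcl9 UMIs were left, too few for a call. The 4 of 8 members called lower stood against 3.12% of 10642 genes, and 1 member was called higher, against 1.23%. That member was Ccl1, 12.1-fold (5.88 to 26.7), but 28 of its 30 UMIs came from 1 cell, and the call was lost without the highest cells. Cxcl2 was at 203 CPM with Il1rl1 and 161 CPM without, a ratio of 1.26 (1.13 to 1.41), which turned to 0.873 without the 10 highest cells of each side. In Treg cells with CD3 and no myeloid UMI, Cxcl2 was at 161 CPM in 460 cells with Il1rl1 and 56.6 CPM in 1887 without, a ratio of 2.85 (2.44 to 3.33), from 40 and 82 positive cells. The ratios of the CC ligands were close to those in all Treg cells, with 0.333 for Ccl5, 0.314 for Ccl4 and 0.397 for Ccl3.

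**Figure D5:**
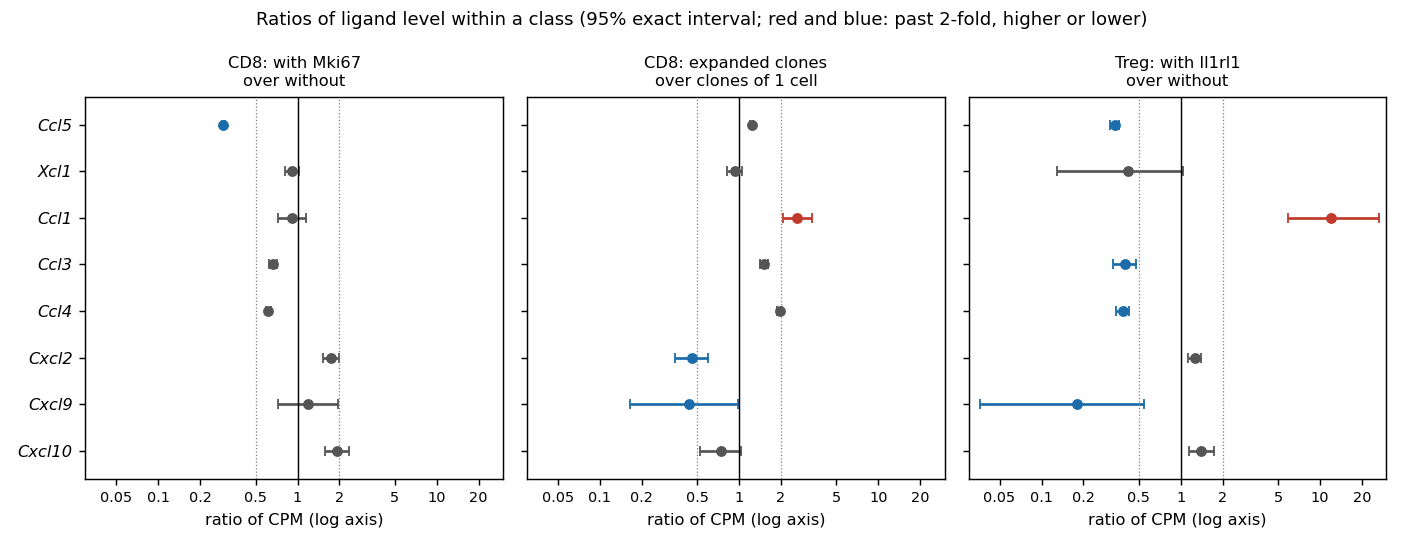
Ratio of level within a class for 8 ligands, on a log axis with 95% exact intervals: CD8 with over without Mki67, CD8 in expanded clones over clones of 1 cell, and Treg with over without Il1rl1. Red and blue points are past 2-fold with an interval that leaves out 1. In Treg with Il1rl1, Ccl5, Ccl4 and Ccl3 lay at 0.335, 0.382 and 0.399.

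Treg cells with Mki67 (408) had 0 of 8 members higher and 4 lower, against 7.19% and 4.5% of 10642 genes. Their ratios were 0.487 (0.462 to 0.514) for Ccl5, 0.244 (0.206 to 0.287) for Cxcl2, 0.285 for Ccl1 and 0.196 for Xcl1, the last pair from 4 UMIs each in the cells with Mki67. In Treg cells with CD3 and no myeloid UMI, Ccl5 (0.548) and Cxcl2 (0.554) were not past 2-fold, and Ccl4 (0.352) was called lower. Without the 10 highest cells of each side Ccl3 (0.264), Ccl4 (0.287) and Cxcl10 (0.343) were also called lower. Those 10 were a larger part of the 408 cells with Mki67 than of the other Treg cells, which tends to lower a ratio. In Tconv with Pdcd1 (299 cells), Ccl1 was 10.0-fold (6.64 to 15.5) higher and Cxcl10 lower (0.409, 0.241 to 0.657), against 1.25% and 3.08% of 9607 genes, and the Ccl1 call was lost without the 10 highest cells. Ccl5 stood at 1365 against 1616 CPM (0.845, 0.7996 to 0.892).

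Myeloid cells with C1qa (69), a complement gene of macrophages, had lower Cxcl2, at 1289.9 against 3402 CPM (0.379, 0.354 to 0.406), and lower Cxcl9 (0.460, 0.351 to 0.599), against 7.64% of 6282 genes. Ccl5 and Ccl4 were called higher (3.11 and 2.38, against 9.15% of genes), but without the 10 highest cells of each side they stood at 0.537 and 1.02. The Cxcl9 call was also lost then, while Cxcl2 was at 0.390 and still called. Ly6c2, a gene of monocytes, did not mark them alone here, since it stood at 1056 CPM in CD8 and 268 CPM in the myeloid class. Whether its UMIs in myeloid barcodes came from T cells was not tested. Myeloid cells with Ly6c2 (64) had Cxcl9 at 472 against 28.7 CPM, 16.4-fold (11.5 to 24.2) higher, and lower Ccl4 (0.438, 0.395 to 0.484), against 5.57% and 5.99% of genes. The Cxcl9 call was lost without the 10 highest cells of each side, and the Ccl4 ratio was then 0.433.

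Ccl3 and Ccl4 were often found in the same cell. At 1500 UMIs per cell, 69.8% (63.8 to 75.4) of CD8 cells with Ccl3 also held Ccl4, against 24.9% (22.4 to 27.4) of those without Ccl3. The shares were 47.1% against 8.67% in Treg, 37.3% against 4.65% in Tconv and 61.0% against 26.5% in the myeloid class. Xcl1 did not go with Ccl4 in CD8 in this way, since 34.6% (26.4 to 43.6) of cells with Xcl1 and 32.7% (30.2 to 35.3) of those without held Ccl4. Ccl1 went with Xcl1, which was present in 44.4% (25.5 to 64.7) of 27 CD8 cells with Ccl1 and 8.20% of the others. In the myeloid class 47.1% of cells with Cxcl2 held Ccl3, against 21.8% of those without.

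Across 5361 thinned T cells of the 1 library, the gene most like Ccl3 was Ccl4 (Pearson r = 0.565 over cells), followed by Ifng (0.241), which encodes interferon-γ, and Nkg7 (0.203), a cytotoxic granule gene. Ccl4 was in turn like Nkg7 (0.293) and Ccl5 (0.258). Ccl5 was most like Nkg7 (0.4999), Cd8b1 (0.440) and the granzyme gene Gzma (0.410), and Xcl1 most like Cd160 (0.238). Cxcl2 in T cells was most like the myeloid genes Cd14 (0.422), Spp1 (0.349) and Ccl6 (0.307). In 4359 of these cells with CD3 and no myeloid UMI, no gene reached an r of 0.2 with Cxcl2, and the highest, named after its value was seen, was Il2ra (0.139). In the 172 thinned myeloid cells Cxcl2 was most like Cxcl3 (0.457), which lies in the same family, Il1a (0.3997) and Cd14 (0.399). Ccl4 was most like Ccl2 (0.453), Ccl3 (0.429) and Arl5b (0.375) there, and Ccl3 like Ccl4, Inhba (0.365) and Cxcl2 (0.359). These correlations over cells share 1 library and are given as a description.

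Of 22 other chemokine ligands listed, 20 had a single row in the table. In the myeloid class over T cells 14 had enough UMIs, and 13 were higher and 1, Ccl27a, lower, against 12.7% and 20.7% of all genes, with a median ratio of 29.6 against 3.16 for the members and 0.765 for all genes. The highest were Ccl6 at 4403 CPM and Ccl2 and Ccl7, which draw monocytes, at 4043 and 2059 CPM. In CD8 over Treg, 3 of 12 were higher, against 3.88% of all genes, all of them monocyte attractants (Ccl2, Ccl7 and Ccl12), genes that were also called higher in the myeloid class.

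The partner receptors, 8 of a fixed list, had another order than the ligands. Ccr8, the receptor of CCL1, stood at 171 CPM (163 to 179) in Treg, 60.3 CPM (54.1 to 67.0) in Tconv and 18.0 CPM (15.4 to 20.8) in CD8, the reverse of Ccl1 in CD8 and Treg. Ccr4, the receptor of CCL22, stood at 25.1 CPM in Treg and 2.19 CPM in CD8. Cxcr3, the receptor of CXCL9 and CXCL10, was at 141 CPM in Tconv, 133 in Treg and 72.9 in CD8, and at 7.19 in the myeloid class. In CD8 over Treg, 4 of 6 receptors with enough UMIs were lower and 0 higher, against 8.8% and 3.88% of all genes, and in Treg over Tconv 4 of 6 were higher, against 4.71%. Xcr1 and Cxcr2 had under 3 CPM in every class, and no UMI of Ackr2 was found in any.

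The hashtag library shared 9627 barcodes with the kept cells but held 1730 tag UMIs in all, so the tumor of origin was known for few cells. By at least 1 tag UMI, with all from 1 tumor, 898 kept cells were given to B16 and 149 to B16IL33, and 935 of these 1047 calls rested on 1 tag UMI. In CD8, with 142 and 21 cells, 0 of 7 members were higher in B16IL33 and 4 lower, against 1.49% and 2.57% of 5379 genes. Xcl1 had 2 UMIs against 231, a ratio of 0.0789 (0.00949 to 0.288). Cxcl2, Cxcl9 and Ccl1 had 0 UMIs against 130, 41 and 37, at least 4.76-fold, 1.501-fold and 1.35-fold lower against a floor of 3 counts. These ligands lay in few cells. Among CD8 cells without a UMI of the 8 myeloid genes, 1.13% held Cxcl2, 0.173% Cxcl9 and 4.24% Ccl1. Among those with 5 or more the shares were 34.0%, 9.43% and 2.83%. In 21 cells such ligands may be absent by the sampling of cells, which the intervals and floors do not cover. A difference between the tumors was not tested. Ccl5 was at 5096 CPM in B16IL33 and 5090 CPM in B16, a ratio of 1.00 (0.917 to 1.09), and Ccl4 and Ccl3 had ratios of 0.694 (0.570 to 0.838) and 0.514 (0.355 to 0.723).

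The tags of 1 tumor also differed among themselves. In B16 CD8 cells Cxcl9 stood at 133 CPM in 44 cells with the tag numbered 1 and 7.82 CPM in 97 cells with the tag numbered 2, and Ccl5 at 6757 and 4509 CPM. With at least 2 tag UMIs required, none of the 4 calls was left, and Ccl5 was then the 1 member called lower. In Treg, with 281 and 57 cells, 0 of 6 members were called, against 3.22% and 2.7% of 6885 genes. Ccl4 had a ratio of 1.27 (1.04 to 1.54) and Ccl5 of 1.15 (0.998 to 1.32). Within Treg the direction turned with the tag number: Ccl4 was at 0.335 with the tags numbered 1 and 1.95 with those numbered 2. In Tconv, with 170 and 17 cells, Ccl4 was called higher (5.18, 3.17 to 8.28) from 27 UMIs, against 3.08% of 3476 genes, and was at 0 UMIs without the 3 highest cells of each side. Tumor, tag and mouse cannot be told apart in these values.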

How the data were processed

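Gene expression, hashtag and TCR libraries of 1 pool of sorted tumor T cells were analysed. The authors deposited raw UMI counts per gene or tag and barcode, and UMI counts per TCR contig. Reads were aligned with Cell Ranger to mm10 (the gene table holds human and mouse genes). The file header names version 3.1.0 and the submitters' processing notes 6.1.1. The study's methods keep cells with 200 to 2500 detected genes and under 5% mitochondrial counts. Here no upper limit was set, and 766 kept cells exceeded 2500 genes, a limit tried as an alternative.

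The members, classes and gene lists were chosen with earlier results of these data known. All 9 members were named by symbol, for likeness the 3 genes of highest r where r was at least 0.2 (for Ccl5, Ccl22, Cxcl9 and Cxcl10 in the myeloid class these rested on few cells and are not given), and other ligands and receptors by fixed lists. Classes were rebuilt from transcripts and may differ from those of the study. No doublet caller was run, and leaving out barcodes with 2 or more productive TCR beta chains was tried instead. Shares were thinned to 1500 UMIs per cell, which left out 109 CD8, 454 Treg, 322 Tconv, 2 NKT and 11 myeloid cells. Correlations used log2(thinned UMIs + 1). A listed receptor and 2 splits of the T cell classes are not reported here. No replicates exist, and no test across samples was made. The ratio step was tested on simulated data. Gene positions came from the GENCODE annotation of GRCm38 (30934 of 31053 identifiers found) and sequences from RefSeq. Python 3.11.15, NumPy 2.4.6, SciPy 1.17.1, pandas 2.3.3 and matplotlib 3.10.9 were used.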

Additional observations from a re-analysis of the deposited data

How the results depend on the processing

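No paired analysis was possible because there was 1 library of each kind and no group with replicates. Across the alternatives 142 summary values kept their size and 41 moved. Of the other values, 775 stayed, 242 moved, 45 came past the threshold and 18 fell back from it. In 4 a called ratio crossed 1. A level or share stayed if it lay in its main interval, and a ratio if its call did not change. An uncalled ratio that crossed 1 thus counted as stayed, or as moved where it became a call. The 4 are therefore not all of the reversals. Of 46 values, the levels by class and the count of members highest in the myeloid class, 42 moved without the 10 highest cells. The number of members highest in the myeloid class was 6, and 4 to 6 under the alternatives. It was 4 without the 10 highest cells, where Ccl4 was higher in CD8 and Ccl22 had no UMI left in any class. In CD8 over Treg, 0 members were lower, but 2 with at most 2500 detected genes and 1 with the CD3 and Csf1r limits, with 2 UMIs of the class gene, without the 10 highest cells, in T cells with CD3 and no myeloid UMI, and with 5 UMIs as the minimum. In CD8 over Tconv it was 1 in place of 0 in T cells with no myeloid UMI and with the 5-UMI minimum. In Treg over Tconv 5 in place of 3 were higher with 2 UMIs of the class gene, and 1 in place of 2 lower without the 10 highest cells. In NKT over Tconv 0 in place of 1 were higher with 2 UMIs of the class gene (Xcl1 at 0) and without the 10 highest cells (Xcl1 at 0.932), and 5 in place of 3 lower with 2 UMIs. In the myeloid class over T cells 2 in place of 6 were higher without the 10 highest cells. For B16IL33 over B16 in CD8, 1 in place of 4 were lower with 2 tag UMIs (Ccl5, not among the 4) and with at most 2500 genes (Cxcl2). In Treg, in place of 0, 1 was lower with 2 tag UMIs and with at most 2500 genes, 4 with the tags numbered 1, and 2 were higher with the tags numbered 2. In Tconv, in place of 1, 0 were higher with the tags numbered 1 and without the 3 highest cells (Ccl4 at 0), 2 with at most 2500 genes, and 1 in place of 0 lower with the tags numbered 2 and without the 3 highest cells. Within classes, leaving out the 10 highest cells gave 0 higher in Treg with Il1rl1, 0 higher and 4 lower in Tconv with Pdcd1, and 0 higher and 1 lower in myeloid cells with C1qa (Ccl5 at 0.537), 0 higher and 2 lower in those with Ly6c2, 4 and 6 lower in CD8 and Treg with Mki67, and 3, 4 and 1 lower in expanded CD8, Treg and Tconv clones. T cells with no myeloid UMI gave 2 higher in Treg with Il1rl1, 2 lower in Tconv with Pdcd1, 3 lower in both CD8 and Treg with Mki67, and 1, 2 and 1 lower in expanded CD8, Treg and Tconv clones. Selections by myeloid UMIs, by the highest cells within a class and by the 3 highest cells of a tag group were chosen after seeing the data, and the cause of these changes was not tested. Leaving out an equal number of cells takes a larger part of the smaller side, which tends to lower that side. Depth limits Ccl22, Cxcl9 and Ccl1, which had under 600 UMIs each.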
